A study of Mus musculus with 8 samples.

Results

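The 9 genes described here, Pax6, Zic1, Zic2, Zic4, Zic5, Neurod1, Neurod2, Eomes and Reln, are genes of cerebellar-type granule cells and unipolar brush cells. They were taken by symbol from a table of 39017 genes measured in cells sorted from the cochlear nucleus, the first relay of hearing in the hindbrain, of C57BL/6 mouse embryos at stage E18.5. The 4 mutant libraries carried Math1::Cre, Rosa tdTomato and conditional alleles of the hindbrain patterning genes Hoxa2 and Hoxb2. Their titles give the genotype as Hoxa2+/fl; Hoxb2fl/fl, whereas the design text gives both alleles as homozygous. The 4 wild type libraries also carried Math1::Cre and Rosa tdTomato, with no conditional allele named. The reporter therefore marked cells in which the Math1 (Atoh1) promoter had been active, and their descendants. Each library came from 30000 sorted cells of 3 pooled littermates, with a different mother for each library. Libraries are named by the table's headings, with the mutants numbered 1 to 4 and the wild types 5 to 8. The comparison asks how these genes stand when the Hox alleles are conditional in this lineage.

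Granule cells are small excitatory neurons that descend from Atoh1-expressing progenitors of the rhombic lip. In the cochlear nucleus, as in the cerebellum, they relay inputs through parallel fibres. Unipolar brush cells are excitatory interneurons of the granule cell regions and of the same lip. Pax6 is a paired-box transcription factor present in granule progenitors and neurons. The Zic genes encode zinc finger transcription factors, with Zic1 and Zic4 as neighbours on chromosome 9 and Zic2 and Zic5 as neighbours on chromosome 14. Neurod1 and Neurod2 encode basic helix-loop-helix (bHLH) factors of differentiating granule neurons. Eomes, also called Tbr2, is a T-box factor used as a marker of unipolar brush cells, and Reln encodes reelin, a secreted protein that granule cells release and that guides neuron positioning.

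Promoter windows from RefSeq (build GRCm38.p6, which mm10 denotes) run from 250 bases before to 50 bases after each start and were present for 8 of the 9 genes, all but Zic2. The sequences of 4 are shown: Zic1, Zic4 and Neurod2, which were lowest in the same 3 libraries, and Eomes, which was not. Capitals mark matches on either strand to CANNTG, the E-box that bHLH factors such as Atoh1 and Neurod1 bind, and to TGATNNAT, a joint Hox and Pbx site.
Zic1 (chr9:91365719-91366018, minus strand): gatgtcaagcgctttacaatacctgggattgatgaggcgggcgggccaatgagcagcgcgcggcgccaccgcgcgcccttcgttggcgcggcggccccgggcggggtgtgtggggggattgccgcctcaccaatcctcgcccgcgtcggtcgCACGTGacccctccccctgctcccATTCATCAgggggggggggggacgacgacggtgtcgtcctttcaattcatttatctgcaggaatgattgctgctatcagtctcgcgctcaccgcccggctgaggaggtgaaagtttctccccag
Zic4 (chr9:91368722-91369021, plus strand): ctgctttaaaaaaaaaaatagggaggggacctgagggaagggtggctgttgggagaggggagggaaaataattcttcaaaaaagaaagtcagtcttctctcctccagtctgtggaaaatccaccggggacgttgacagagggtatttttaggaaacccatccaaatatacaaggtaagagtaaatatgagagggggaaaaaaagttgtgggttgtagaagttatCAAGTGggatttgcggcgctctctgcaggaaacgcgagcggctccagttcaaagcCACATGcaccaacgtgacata
Neurod2 (chr11:98329596-98329895, minus strand): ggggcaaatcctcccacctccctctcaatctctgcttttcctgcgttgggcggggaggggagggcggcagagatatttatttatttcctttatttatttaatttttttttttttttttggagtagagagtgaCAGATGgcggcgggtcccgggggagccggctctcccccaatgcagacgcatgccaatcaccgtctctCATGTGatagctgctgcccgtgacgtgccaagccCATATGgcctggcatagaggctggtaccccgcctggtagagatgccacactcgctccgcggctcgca
Eomes (chr9:118477939-118478238, plus strand): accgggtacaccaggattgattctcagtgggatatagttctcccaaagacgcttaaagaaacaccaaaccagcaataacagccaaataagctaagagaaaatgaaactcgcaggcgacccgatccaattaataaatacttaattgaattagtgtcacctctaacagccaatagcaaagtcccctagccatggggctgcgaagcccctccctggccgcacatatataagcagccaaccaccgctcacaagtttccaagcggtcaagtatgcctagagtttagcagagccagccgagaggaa

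Zic1 held 1 E-box and 1 match to the Hox and Pbx letters. That was the only such Hox and Pbx match in the 9 windows of the 8 genes (Pax6 had 2 windows). Zic4 held 2 E-boxes, Neurod2 held 3, of which 1 was CAGATG, and Eomes held none. Of the windows not shown, those of Reln, Zic5 and Neurod1 held 1 E-box each, and the 2 of Pax6 held 0 and 1. Reln was lowest in the same 3 libraries as Zic1, whereas Zic5 and Neurod1 were not, so these counts did not follow that pattern. Among 32851 windows of the same length, 72.3% held CANNTG, 17.2% held CAGATG, a special case of it, and 8.85% held TGATNNAT. The E-box reads alike on both strands, and no match of one motif overlapped the other in the windows shown. A match describes letters only. The Zic1 and Zic4 windows face away from each other with 2703 bases between them. In the GENCODE M21 annotation, however, the 2 genes overlap, with 3397 bases between their starts. The Zic4 window shown lies inside the annotated gene, at a later start.

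Total counts per library ranged from 26299105 to 51118195 in mutant and from 24789043 to 40050010 in wild type libraries. Hoxb2, a targeted gene, was at 5.02 ± 1.49 CPM in mutant and 40.1 ± 4.41 CPM in wild type libraries (SD, n = 4 each). CPM denotes the TMM-scaled CPM of edgeR, a gene's count relative to the library total. Hoxa2 was at 26.7 ± 15.7 CPM in mutant and 43.2 ± 10.99 CPM in wild type libraries (SD, n = 4 each) and did not pass the test. Hoxb1, a neighbour of Hoxb2 in the Hoxb cluster, was at 85.9 ± 7.71 CPM in mutant and 0.241 ± 0.155 CPM in wild type libraries (SD, n = 4 each), and both Hoxb2 (by edgeR, adjusted p = 3.76e-05) and Hoxb1 (8.37e-09) passed. Atoh1 was present in every library (28.5 to 134 CPM in mutant, 57.5 to 154 CPM in wild type libraries), as was the glutamate transporter Slc17a6 at 472 ± 80.3 CPM in mutant and 608 ± 74.5 CPM in wild type libraries (SD, n = 4 each). Markers of other cell types were also measured. The 12 inhibitory neuron genes summed to 118 to 182 CPM in mutant and 90.7 to 134 CPM in wild type libraries, and the 8 microglia genes to 11.3 to 17.4 CPM in mutant and 15.0 to 23.5 CPM in wild type libraries. None of the tested inhibitory neuron genes passed and 1 microglia gene, C1qa, was lower in mutant libraries by the test. The 10 astrocyte and radial glia genes summed to 403 to 964 CPM in mutant and 611 to 908 CPM in wild type libraries. All 10 together were near the level of the single gene Slc17a6 in most libraries. They were well above it in mutant 1 (964 CPM against 396) and wild type 6 (908 CPM against 501). The 8 oligodendrocyte genes summed to at most 86.3 CPM in mutant and 105 CPM in wild type libraries, and the Purkinje cell, endothelial, choroid plexus and erythroid lists to less. None of the genes of these 6 lists passed the test. Their part in the values of the 9 genes was not tested. Gabra6, a receptor subunit of mature granule cells, had 5 to 14 counts per mutant library and 9 to 23 per wild type library and was not tested, as it fell under the low-count filter.

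All 9 genes were abundant and passed the low-count filter. Per length, as CPM per kilobase of the deposited gene width, each stood above at least 96.6% of the 19494 tested genes in wild type libraries. Together they took 0.807% to 1.15% of all counts in mutant and 0.809% to 0.999% in wild type libraries. Neurod1 had the highest level, at 655 ± 141 CPM per kilobase in mutant and 619.7 ± 29.0 CPM per kilobase in wild type libraries (SD, n = 4 each), and ranked 36th of all tested genes in both groups. Zic1 followed at 593 ± 120.1 in mutant and 456 ± 80.4 CPM per kilobase in wild type libraries (SD, n = 4 each). Zic2 came next, at 164 ± 15.8 in mutant and 150.1 ± 13.7 CPM per kilobase in wild type libraries (SD, n = 4 each).

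The lower 6 genes lay closer together. In wild type libraries the mean level per kilobase was 116 ± 29.7 CPM for Eomes, 110.5 ± 14.3 for Zic5, 91.3 ± 12.5 for Pax6, 71.3 ± 11.3 for Neurod2, 66.1 ± 11.9 for Reln and 60.6 ± 13.3 for Zic4 (SD, n = 4). In mutant libraries Zic5 (108 ± 16.7) stood above Eomes (87.3 ± 10.1), and Zic4 (71.8 ± 10.3) above Reln (62.4 ± 9.75; SD, n = 4). In wild type libraries each of these 6 means lay less than 2 SD from its neighbours, so neighbouring places in the order were not separated by the spread. Some places farther apart were. Zic5 ran from 90.1 to 122 CPM per kilobase in wild type libraries. The highest wild type values were 82.6 for Neurod2, 82.1 for Reln and 75.5 for Zic4. The step from Zic2 to Zic1 and Neurod1 was wider than the spread in both groups, whereas the ranges of Zic1 and Neurod1 overlapped in mutant and not in wild type libraries. The deposited width equalled the exon length of GENCODE M21 for 8 of the genes, and for Reln it was 19834 against 23738 bases.

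**Figure D1:**
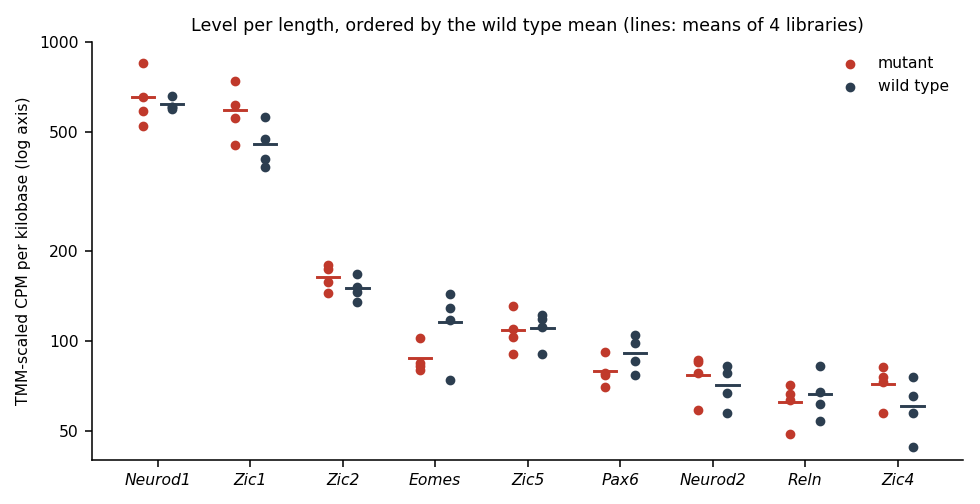
Level per length (TMM-scaled CPM per kilobase of gene width, log axis) of the 9 genes in each mutant library (left of each pair) and wild type library (right), with lines at the means of 4 libraries. Neurod1 and Zic1 stand apart at the top in every library, and the other 7 genes follow from Zic2 (means 164 and 150.1) down.

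None of the 9 genes passed the test between mutant and wild type libraries: 0 rose, 0 fell and 9 did not pass (edgeR quasi-likelihood test, Benjamini-Hochberg adjusted p below 0.05 over all genes). Of all 19494 tested genes 0.359% passed in either direction, 0.144% as higher and 0.215% as lower. The count for the 9 was also 0 by DESeq2, beside 2.66% of genes, by limma-voom, beside 0.354%, and by limma-voom with quality weights, beside 1.2%. It stayed 0 when mutant 1 (2.7% of genes passed) or wild type 6 (0.384%) was left out. Zic1 and Eomes had an unadjusted edgeR p below 0.05, which makes 2 of 9 against 12.5% of all tested genes. The mutant and wild type ranges overlapped for all 9 genes, while 6.17% of tested genes had ranges apart. Log2 fold changes of mutant over wild type were positive for 5 genes and negative for 4, with a median of 0.08 beside -0.01 for all tested genes. The approximate 95% interval of the fold change excluded a 2-fold change in either direction for all 9 genes. It excluded a 1.5-fold change (0.58 on the log2 scale) for 6 of them, all but Zic1, Zic4 and Eomes. In sorted pools, fewer cells of a type and less RNA per cell cannot be told apart.

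**Figure D2:**
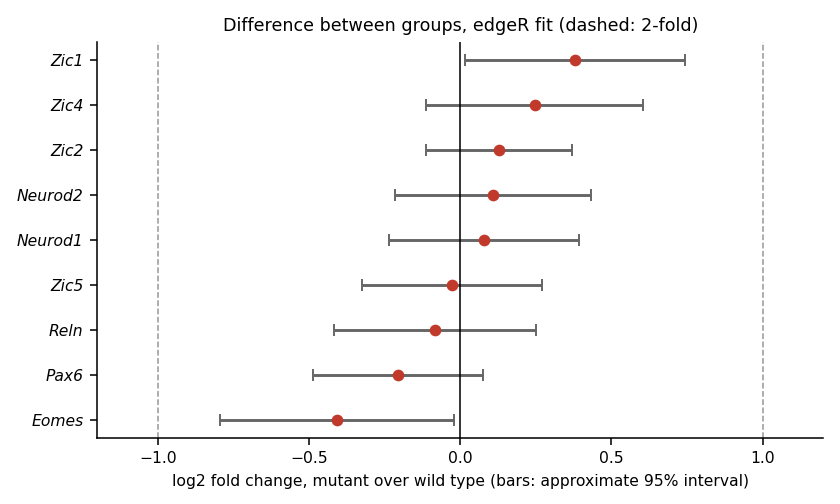
Log2 fold change of mutant over wild type for each gene with its approximate 95% interval from the edgeR fit, and dashed lines at a 2-fold change. Every interval lies inside the dashed lines, and those of Zic1 (0.01 to 0.74) and Eomes (-0.79 to -0.02) stop just short of 0.

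Eomes (ENSMUSG00000032446, chromosome 9, 118478212 to 118486132, plus strand) had the largest absolute fold change of the 9. It stood at 333, 351, 425 and 342 CPM in mutant 1 to 4, and at 595, 308, 487 and 533 CPM in wild type 5 to 8. All 4 mutant libraries lay below the wild type mean, but wild type 6 was the lowest of all 8 libraries, so the groups overlapped. The means were 363 ± 41.9 CPM in mutant and 481 ± 124 CPM in wild type libraries (SD, n = 4 each), a log2 fold change of -0.41 (SE 0.177; adjusted p by edgeR 0.377; permutation p, exact and two-sided, 0.143). Without wild type 6 the groups no longer overlapped and the log2 fold change was -0.57, which did not pass either (by edgeR, adjusted p = 0.106). Raw counts of Eomes were 10168, 8914, 21856 and 12670 in mutant 1 to 4 and 23156, 7907, 17027 and 21079 in wild type 5 to 8. In wild type 6 the unscaled level was 319 CPM, with an exact (Clopper-Pearson) 95% binomial interval of 312 to 326 CPM. That interval covers counting error only, and it overlapped that of mutant 4, the nearest library, at 316 to 327 CPM. The exons of Eomes share 118 bases with the antisense gene Gm33460, which is not among the counted genes.

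Zic1 (ENSMUSG00000032368, chromosome 9, 91358058 to 91365810, minus strand) had the largest positive value. Its level was 2585, 3176, 4222 and 3519 CPM in mutant 1 to 4 and 2309, 2182, 3200.4 and 2694 CPM in wild type 5 to 8. Mutant 2, 3 and 4 lay above the wild type mean and mutant 1 just below it, and wild type 7 and 8 fell inside the mutant range. The means were 3375 ± 684 CPM in mutant and 2596 ± 458 CPM in wild type libraries (SD, n = 4 each), a log2 fold change of 0.38 (SE 0.167; adjusted p by edgeR 0.382; permutation p, exact and two-sided, 0.143). With mutant 3 left out the edgeR log2 fold change was 0.25, and without mutant 1 it was 0.49 (adjusted p by edgeR 0.119).

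Zic4 (ENSMUSG00000036972, chromosome 9, 91362413 to 91389348, plus strand), the neighbour of Zic1, read 593, 753, 843 and 781 CPM in mutant 1 to 4 and 595, 455, 780.5 and 674 CPM in wild type 5 to 8. Its profile over the libraries followed that of Zic1, with wild type 6 lowest and mutant 3 highest for both genes, as also for Zic5 and Neurod2. The means of 742 ± 107 CPM in mutant and 626 ± 137 CPM in wild type libraries (SD, n = 4 each) gave a log2 fold change of 0.25 (SE 0.164; by edgeR, adjusted p = 0.553). It was 0.12 without wild type 6 and 0.37 without wild type 7. The annotated exons of these 2 genes share 60 bases on opposite strands, and without strand those reads cannot be assigned. Zic4 exons also share 468 bases with Gm37477 on the other strand, which is not among the counted genes. The sources used here do not state whether counting used strand.

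Zic2 (ENSMUSG00000061524, chromosome 14, 122475435 to 122479852, plus strand) varied least over the 8 libraries, with a highest level 1.33 times the lowest. It read 418, 453, 501 and 519 CPM in mutant 1 to 4 and 419, 389, 483 and 438 CPM in wild type 5 to 8, for a log2 fold change of 0.13 (SE 0.111; by edgeR, adjusted p = 0.648), which was 0.082 without wild type 6 and 0.086 without mutant 4. Zic5 (ENSMUSG00000041703, chromosome 14, 122456795 to 122465677, minus strand), its neighbour, read 443, 535, 638 and 503 CPM in mutant 1 to 4 and 598, 440.4, 544 and 578 CPM in wild type 5 to 8. The Zic5 means differed by less than the SD of either group, at 529.7 ± 81.6 CPM in mutant and 539.99 ± 70.1 CPM in wild type libraries (SD, n = 4 each; log2 fold change -0.03, SE 0.136; by edgeR, adjusted p = 0.952). Across the 4 Zic genes of this set, Zic1 made up 64.0% to 68.1% of their summed counts in mutant and 58.9% to 63.9% in wild type libraries, with wild type 7 the highest wild type library. The ranges were just apart, and this share was not tested.

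Neurod1 (ENSMUSG00000034701, chromosome 2, 79452521 to 79456751, minus strand) had the steadiest level in wild type libraries, with a coefficient of variation of 4.68%, against 21.5% in mutant libraries. It stood at 1431, 1786, 2322 and 1610.3 CPM in mutant 1 to 4 and at 1809, 1637, 1657 and 1661 CPM in wild type 5 to 8. Mutant 1 and mutant 4 were below and mutant 3 above every wild type library, and the mean levels of 1787 ± 385 CPM in mutant and 1691 ± 79.1 CPM in wild type libraries (SD, n = 4 each) did not pass the test (log2 fold change 0.08, SE 0.144; by edgeR, adjusted p = 0.847). The exons of Neurod1 share 201 bases with Cerkl, which had 635 to 895 counts per mutant and 416 to 936 per wild type library. They share 154 bases with the lincRNA Gm26755 on the other strand, at 81.1 CPM in mutant and 97.0 CPM in wild type libraries. Neurod2 (ENSMUSG00000038255, chromosome 11, 98325415 to 98329648, minus strand) read 184, 244, 271 and 267 CPM in mutant 1 to 4 and 211, 181, 259 and 246 CPM in wild type 5 to 8. Its log2 fold change was 0.11 (SE 0.149; by edgeR, adjusted p = 0.786), and both groups spanned almost the same range. With one library left out it lay between 0.018, without wild type 6, and 0.22, without mutant 1, and it was 0.046 without mutant 3, 0.061 without mutant 4 and 0.19 without wild type 7.

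Pax6 (ENSMUSG00000027168, chromosome 2, 105668900 to 105697364, plus strand) stood at 1077, 898, 911 and 817 CPM in mutant 1 to 4 and at 1225, 1147, 899.9 and 998 CPM in wild type 5 to 8. Mutant 4 was the lowest and wild type 5 the highest, with mutant 1 between the wild type values. Mean levels stood at 926 ± 109 CPM in mutant and 1067 ± 146 CPM in wild type libraries (SD, n = 4 each), for a log2 fold change of -0.21 (SE 0.129; by edgeR, adjusted p = 0.530). The antisense gene Pax6os1 overlaps Pax6 with no shared exon base and was at 5.89 CPM in mutant and 5.03 CPM in wild type libraries.

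Reln (ENSMUSG00000042453, chromosome 5, 21884454 to 22344702, minus strand) read 965, 1260.4, 1314 and 1415 CPM in mutant 1 to 4 and 1216, 1069, 1627 and 1335 CPM in wild type 5 to 8. Mutant 1 was the lowest and wild type 7 the highest, and mutant 2, 3 and 4 all fell inside the wild type range. The means of 1238 ± 193 CPM in mutant and 1312 ± 237 CPM in wild type libraries (SD, n = 4 each) gave a log2 fold change of -0.08 (SE 0.154; by edgeR, adjusted p = 0.852). Its exons share 246 bases with the antisense gene Gm10475, at 24.5 CPM in mutant and 26.3 CPM in wild type libraries.

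**Figure D3:**
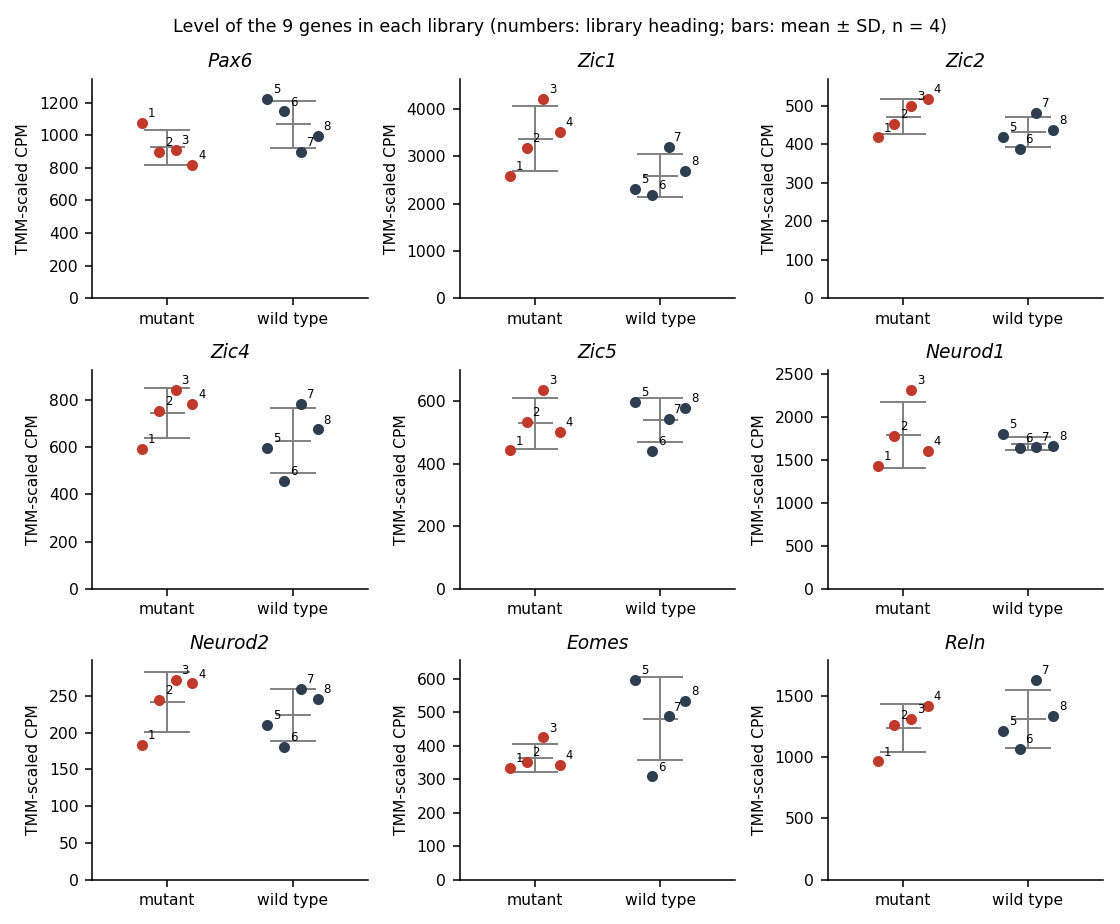
TMM-scaled CPM of each gene in the 4 mutant libraries (left) and the 4 wild type libraries (right), labelled by heading number, with the mean ± SD (n = 4). The groups overlap for all 9 genes, and for Eomes wild type 6 at 308 CPM lies below every mutant library, while the other wild type libraries lie above them.

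Ratios of counts within a library do not depend on scaling and were compared for 3 related pairs by exact permutation, two-sided, in which no p can be below 0.0286. Zic4 had 0.222 ± 0.0162 counts per count of Zic1 in mutant and 0.240 ± 0.0216 in wild type libraries (SD, n = 4 each; exact permutation p = 0.257, adjusted over the 3 ratios 0.386). Its 8 values ran from 0.200 in mutant 3 to 0.257 in wild type 5, although Zic1 itself varied 1.94-fold. Zic5 had 1.12 ± 0.134 counts per count of Zic2 in mutant and 1.25 ± 0.148 in wild type libraries (SD, n = 4 each; exact permutation p = 0.257, adjusted 0.386). Neurod2 had 0.137 ± 0.0209 counts per count of Neurod1 in mutant and 0.133 ± 0.0228 in wild type libraries (SD, n = 4 each; exact permutation p = 0.771, adjusted 0.771). None of the 3 ratios passed this test.

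Differences between libraries within a group followed a shared pattern for most of the genes. For Zic1, Zic2, Zic4, Neurod2 and Reln the 3 lowest libraries were mutant 1, wild type 5 and wild type 6, and for Pax6 the same 3 libraries were the highest. Zic1 was at 2182 to 2585 CPM in these 3 and at 2694 to 4222 CPM in the other 5 libraries. Neurod2 was at 181 to 211 CPM in the 3 and 244 to 271 CPM in the other 5, and Reln at 965 to 1216 CPM and 1260.4 to 1627 CPM. Pax6 was at 1077 to 1225 CPM in the 3 and at 817 to 998 CPM in the other 5. These 3 libraries were singled out because earlier results of these data set them apart as those with the highest summed cycling markers. Among all tested genes 8.70% had them as the lowest 3 and 8.14% as the highest 3. Zic5, Neurod1 and Eomes did not separate the libraries in this way.

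The same 3 libraries had the highest sums of 14 genes of cycling cells and progenitors, among them Mki67, Top2a and Ccnd2. They had been picked for high cycling markers, so this follows from the choice and is no separate result. The sum was 1711 CPM in mutant 1, 2218.5 CPM in wild type 5 and 2216 CPM in wild type 6, while in the rest it was 755 to 1005 CPM among the mutant and 901 to 1328 CPM among the wild type libraries. All 14 were tested and 0 passed (13 had a negative fold change, 2 had an unadjusted edgeR p below 0.05, beside 12.5% of all tested genes, median -0.61). Mcm2, a replication gene with the smallest p of this list, was at 30.2 ± 7.38 CPM in mutant and 49.5 ± 12.4 CPM in wild type libraries (SD, n = 4 each; log2 fold change -0.71, adjusted p by edgeR 0.208). Of 14 genes listed for excitatory neurons of the cochlear nucleus, all tested, none passed, with a median log2 fold change of -0.08. Barhl2, a homeobox gene with the smallest p of that list, had ranges apart, at 50.3 to 89.3 CPM in mutant and 94.2 to 122 CPM in wild type libraries (log2 fold change -0.67, adjusted p by edgeR 0.123). Mutant 1, wild type 5 and wild type 6 were the highest for Barhl2 within their groups. Ordered by the cycling sum, the libraries fell in the same order as by Pax6 level apart from mutant 2 and wild type 7, which changed places. The sums of wild type 5 and wild type 6 were nearly tied. This order was seen after the values were known, and the share of all tested genes with as close an order was not measured. The part of cycling cells in the values of the 9 genes was not tested. Without mutant 1, wild type 5 and wild type 6, where 0.849% of all genes passed, still none of the 9 did, with edgeR log2 fold changes of 0.31 for Zic1 (adjusted p = 0.591), -0.11 for Pax6 (0.844) and -0.45 for Eomes (0.259). The values for Pax6, the Zic genes and Neurod2 were nearer to 0 than with all libraries. Those for Eomes, Neurod1 (0.21) and Reln (-0.15) were farther from it. The Pax6 value had an SE of 0.130, and these shifts were not tested.

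**Figure D4:**
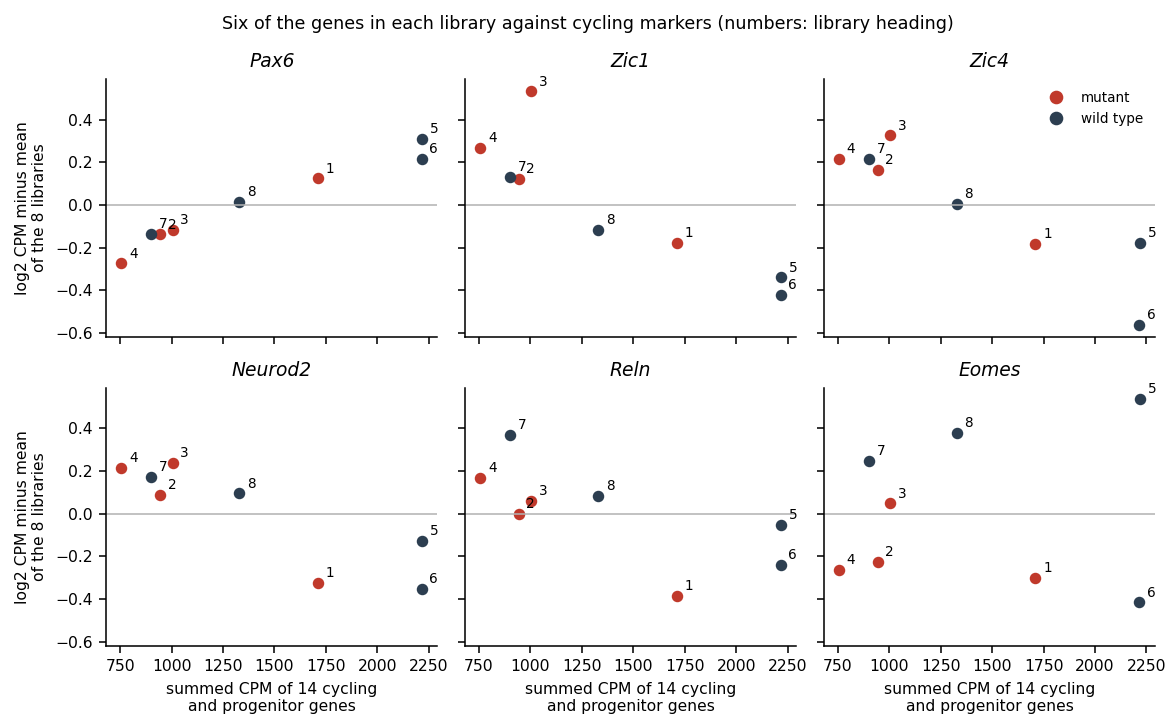
Log2 CPM of 6 of the genes minus their mean over the 8 libraries, against the summed CPM of 14 cycling and progenitor genes in the same library, with mutant and wild type libraries in separate colours and numbered by heading. Pax6 is high where the sum is high, Zic1, Zic4, Neurod2 and Reln are low there, and Eomes spreads between wild type 5 at 0.54 and wild type 6 at -0.42 at nearly equal sums.

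Other genes of the same cells were compared next; those that did not pass are named for their roles, a choice made after their values were seen. Of 24 listed granule neuron genes 23 could be tested, of which 1 rose, 1 fell and 21 missed the threshold, with a median log2 fold change of -0.06. At an unadjusted edgeR p below 0.05 the count was 8 of 23, beside 12.5% of all tested genes. Etv1, an ETS transcription factor of granule neurons, rose to 11.3, 21.9, 22.6 and 28.4 CPM in mutant 1 to 4, against 8.79, 10.1, 8.15 and 8.53 CPM in wild type 5 to 8 (log2 fold change 1.25, SE 0.232; by edgeR, adjusted p = 0.0499). The groups did not overlap, but mutant 1 lay close to wild type 6. Sema6a, a transmembrane semaphorin that takes part in granule cell migration, fell to 245, 232, 211 and 221 CPM in mutant 1 to 4, against 316, 395, 372 and 339 CPM in wild type 5 to 8 (log2 fold change -0.65, SE 0.105; by edgeR, adjusted p = 0.0251). By edgeR, among the genes that did not pass, Cbln1, which encodes a secreted synapse organizer of granule cells, had 0.43 (adjusted p = 0.403), the homeobox gene Barhl1 had -0.18 (0.574) and Nfia, a nuclear factor of granule neuron maturation, had -0.36 (0.280). Mutant and wild type ranges were apart for 5 of the 23, Nfia among them, beside 6.17% of all tested genes.

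For unipolar brush cells, all 12 listed genes could be tested, of which 0 rose, 1 fell and 11 missed the threshold, with a median log2 fold change of -0.13 and 6 of 12 at an unadjusted edgeR p below 0.05, beside 12.5% of all tested genes. Plcb1, a phospholipase C that acts downstream of metabotropic glutamate receptors, fell to 78.1, 103, 69.7 and 91.1 CPM in mutant 1 to 4, against 131, 127, 142 and 148 CPM in wild type 5 to 8 (log2 fold change -0.68, SE 0.128; by edgeR, adjusted p = 0.0494). Every mutant library lay below every wild type library. Its family member Plcb4 had a log2 fold change of 0.54 (SE 0.138; by edgeR, adjusted p = 0.142) with ranges that were also apart, at 44.8 to 64.8 CPM in mutant and 31.8 to 40.9 CPM in wild type libraries. The homeobox gene Lmx1a, a marker of unipolar brush cells, was at 123 to 157 CPM in mutant and 85.0 to 157 CPM in wild type libraries, a log2 fold change of 0.06 (adjusted p by edgeR 0.919). By edgeR the homeobox gene Otx2 had -0.32 (adjusted p = 0.440) and the calcium-binding protein Calb2 1.06 (0.195). Lmx1a and Eomes, which both mark these cells, thus had fold changes of 0.06 and -0.41, and neither passed.

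In the reelin pathway, reelin binds the receptors Lrp8 (ApoER2) and Vldlr and signals through the adaptor Dab1 and Src family kinases. Of the 14 listed genes, all tested, none rose or fell, with a median log2 fold change of -0.05. An unadjusted edgeR p below 0.05 was found for 3 of the 14, beside 12.5% of all tested genes. Lrp8 came closest, at 189, 245, 212 and 272 CPM in mutant 1 to 4 and 148, 110, 173 and 142 CPM in wild type 5 to 8. The groups did not overlap, and the log2 fold change of 0.68 (SE 0.152) had an edgeR adjusted p of 0.0978. By edgeR, Vldlr had 0.35 (adjusted p = 0.524), Dab1 0.57 (0.535) and the kinase Fyn -0.05 (0.905), while the integrin subunit Itgb1, second by p, had -0.33 (0.303).

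Among 13 listed bHLH factors and their partners 11 could be tested, of which 0 rose, 1 fell and 10 missed the threshold. Their median was -0.29, and 2 of 11 had an unadjusted edgeR p below 0.05, beside 12.5% of all tested genes. Nhlh1, a factor of newly formed neurons, fell to 56.1, 43.1, 45.6 and 40.4 CPM in mutant 1 to 4, against 93.7, 93.3, 81.7 and 88.1 CPM in wild type 5 to 8 (log2 fold change -0.95, SE 0.119; by edgeR, adjusted p = 0.00603). Neurod4, of the same family as Neurod1 and Neurod2, had -1.11 (SE 0.279; by edgeR, adjusted p = 0.159) and ranges of 35.0 to 76.0 CPM in mutant and 67.2 to 131 CPM in wild type libraries. By edgeR, Neurod6 had -0.27 (adjusted p = 0.575) and Atoh1 itself -0.55 (SE 0.545, adjusted p = 0.701), with mutant 1 at 134 CPM and wild type 6 at 154 CPM as the highest of each group. The Neurod genes of differentiating granule neurons, Neurod1 and Neurod2, thus differed by 0.08 and 0.11 on the log2 scale beside -0.95 for Nhlh1, and the difference between these genes was not tested. Of the 4 calls in these lists, that of Nhlh1 held in all 18 alternatives. The Etv1 call ended without mutant 2, 3 or 4 or any wild type library, with an adjusted p of up to 0.170. It also ended by limma-voom (adjusted p = 0.0961) and, by edgeR, with a filter of 1 CPM (0.0617), a non-robust fit (0.0599) or upper quartile scaling (0.0582). Sema6a lost its call without mutant 2, 3 or 4 or wild type 6, 7 or 8 (up to 0.108), and Plcb1 without mutant 3 or 4 or any wild type library (up to 0.157). Plcb1 also missed the threshold when the 3 libraries with high cycling sums were left out, by edgeR (adjusted p = 0.0711), with a non-robust fit (0.0558) and with upper quartile scaling (0.0538), whereas Etv1 and Sema6a passed without those 3 libraries.

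**Figure D5:**
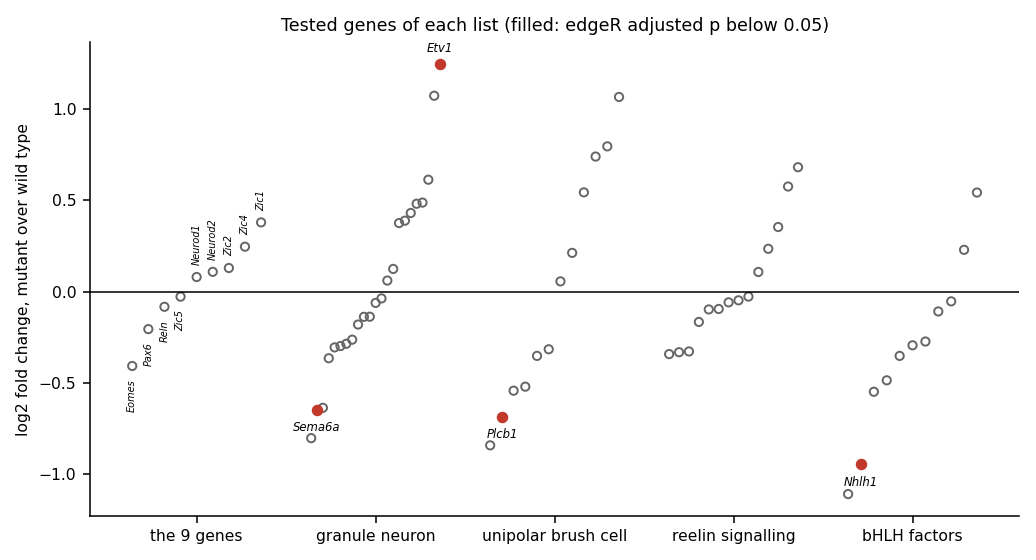
Log2 fold change of mutant over wild type for the tested genes of each list, in rising order within a list, with genes past the threshold filled. The 9 genes lie between -0.41 and 0.38 with none filled, and Etv1, Sema6a, Plcb1 and Nhlh1 are filled in the other lists.

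The genes whose log2 CPM over the 8 libraries was most like that of Eomes, out of 11958 genes that had a symbol and averaged 1 or more in log2 CPM, were Fam118a, Acd and Cstf1. Zic1 was matched most closely by Ppp1r1a, Tstd3 and Smim14 in the same search. Pearson's r over 8 libraries was 0.976, 0.967 and 0.964 for the Eomes matches, and 0.994, 0.989 and 0.987 for the Zic1 matches. They were picked for that likeness, so that r is a description of the choice. None of these 6 passed the test between the groups, with log2 fold changes of -0.22, -0.19 and -0.23 for the first 3 and 0.43, 0.40 and 0.33 for the second.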

How the data were processed

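RNA from sorted, tdTomato-marked cochlear nucleus cells of E18.5 mouse embryos (4 mutant and 4 wild type libraries, each of 3 pooled littermates) was made into libraries from 2 ng RNA with 14 PCR cycles, with poly-A and random primers, and read on 3 lanes, per the labels' protocols. The deposited table holds whole-number read counts per gene, with gene width and positions, as made by the authors. The submitters' processing notes name bcl2fastq 1.8.4 and the build mm10. The aligner, counter and strand setting are not given in the sources used here. Widths are the authors' deposited values. Columns carry running numbers, so a column's group is known but not its replicate number in the titles.

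Counts were filtered with filterByExpr, TMM-scaled and tested with edgeR 4.0.16 (quasi-likelihood F test, robust) in R 4.3.3, with Benjamini-Hochberg adjustment over 19494 genes and a threshold of 0.05. SE is the absolute log2 fold change over the root of F, and intervals use the fit's degrees of freedom. DESeq2 1.42.0 and limma 3.58.1 were alternatives. The script was tested on simulated data. Labels give separate mothers per library, so p-values measure the spread between litters. The lowest chi-square per gene between 2 libraries was 18.2, so no pair agreed within sampling noise. Binomial intervals cover counting error only, whereas the fold change intervals cover the spread between libraries. The biological coefficient of variation was 23.2%.

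The 9 genes and all lists were chosen with earlier results of these data known. The rule named all 9, list members past the threshold or else the 2 with the smallest p, overlapping genes, Hoxb2, Hoxa2 and Hoxb1, and the 3 genes most like Eomes and Zic1 by Pearson's r. Other list members were named for their roles after their values were seen. Some members of the lists are not reported here by name.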

Additional observations from a re-analysis of the deposited data

Results flagged for a closer look

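Of 32 groups of 4 libraries examined, 1 had a library far from the others by Dixon's ratio, a count that chance alone can give, since about 1 group in 20 passes the limit. Neurod1 in wild type 5 stood at 1809 CPM, with the next wild type library at 1661 CPM and the lowest at 1637 CPM. The gap to the next library was 0.860 of the whole range, above Dixon's limit for 4 values.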

How the results depend on the processing

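None of the 9 genes passed the threshold in any of 18 alternatives. The number of all genes that passed, 70 in the reported fit, was 489 by DESeq2, 233 by limma-voom with quality weights, 214 with no low-count filter, 171 without mutant 1, wild type 5 and wild type 6, and 26 (without mutant 4) to 544 (without mutant 1) with one library left out. Of genes in the other lists that were followed, 4 in the reported fit, 9 passed by DESeq2, 2 with a non-robust fit, 2 with upper quartile scaling and 1 to 10 with one library left out. With one library left out, log2 fold changes ran from -0.13 to 0.051 for Zic5, -0.17 to 0.040 for Reln and -0.073 to 0.18 for Neurod1, and the log2 difference of the Neurod2 to Neurod1 ratio from -0.047 to 0.13, so that the direction of these 4 values is not fixed. The cause was not tested. Ordered by CPM without gene width, 0 of the 9 genes kept their rank. Scaling by library size only moved the median of all genes to -0.07. No paired analysis was possible because the columns carry running numbers and not the replicate numbers of the titles.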
